A study of Mus musculus with 24 samples.

Results

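The genes described here make cholesterol in the cell, control its synthesis, or carry, export and break it down. The set holds 32 named mouse genes, 19 of them enzymes of synthesis, 7 regulators and 6 genes of transport and turnover. A probe set counted for a gene when that gene was its only symbol in the platform annotation and where a gene had several, the one of highest mean over the 24 arrays was read. A gene was measured when this probe set averaged at least 4 on the log2 scale in striatum or in cerebellum. By this rule 28 of the 32 genes were measured, out of 10766 genes and 20738 probe sets past the same filter. Acat2, Nr1h2 and Soat1 had no probe set under a single symbol in the annotation used here. Nr1h3, a nuclear receptor that senses oxysterols, had 1 probe set below the filter, with a highest group mean of 2.48.

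The arrays compare homozygous huntingtin knock-in mice (HdhQ111/HdhQ111, called Q111 here), which carry a lengthened CAG repeat in the mouse gene of Huntington's disease, with wild-type mice (Hdh+/Hdh+). Total RNA of each mouse group came from striatum, the region that degenerates first in the disease, and from cerebellum, at a stated age of 3 to 10 weeks. There were 4 groups of 6 arrays: Q111 striatum, wild-type striatum, Q111 cerebellum and wild-type cerebellum. The labels call the arrays biological replicates but give no sex, no age of a single sample and no mouse of origin, so each p-value speaks only of the spread among the arrays at hand.

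Brain cholesterol is made almost wholly within the brain, since the blood-brain barrier keeps plasma lipoproteins out, and most of it ends up in myelin. The mevalonate arm of the pathway builds isoprenoid units from acetyl-CoA, and a second series of enzymes joins them to squalene, closes the rings and trims the product to cholesterol. The transcription factors SREBP-1 and SREBP-2, escorted by SCAP and held back by the INSIG proteins when sterols are plentiful, switch these enzymes on together. Neurons dispose of surplus cholesterol by hydroxylating it with CYP46A1, and liver X receptors switch on the exporters ABCA1 and ABCG1.

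The promoters of 3 synthesis enzymes are printed because these genes stand at different points of the pathway and have 1 start site each in the table used, so a reader can see what their upstream sequence does and does not share. Promoters were taken from RefSeq (build GRCm38.p6), which matched 27 of the 32 genes by symbol. Each sequence is the 250 bases before the start site, read 5′ to 3′ on the gene's own strand. Capitals mark the letters TCACNCCAC, the core of the sterol element bound by SREBP as known from the LDL receptor promoter, and CCAAT, the box bound by NF-Y, on either strand (ATTGG is CCAAT read on the other strand). The positions are chr13:119690101-119690350 on the plus strand for Hmgcs1, chr13:8885356-8885605 on the plus strand for Idi1 and chr5:4104698-4104947 on the minus strand for Cyp51.
Hmgcs1: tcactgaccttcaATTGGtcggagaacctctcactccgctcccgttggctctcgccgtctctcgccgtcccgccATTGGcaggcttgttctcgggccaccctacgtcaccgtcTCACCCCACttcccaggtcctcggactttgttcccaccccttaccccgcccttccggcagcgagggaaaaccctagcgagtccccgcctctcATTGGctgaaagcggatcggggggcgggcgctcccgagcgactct
Idi1: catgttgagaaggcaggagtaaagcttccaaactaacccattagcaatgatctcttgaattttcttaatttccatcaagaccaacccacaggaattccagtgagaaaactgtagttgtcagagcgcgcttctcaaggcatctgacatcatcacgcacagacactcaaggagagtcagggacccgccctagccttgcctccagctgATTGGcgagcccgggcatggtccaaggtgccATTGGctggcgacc
Cyp51: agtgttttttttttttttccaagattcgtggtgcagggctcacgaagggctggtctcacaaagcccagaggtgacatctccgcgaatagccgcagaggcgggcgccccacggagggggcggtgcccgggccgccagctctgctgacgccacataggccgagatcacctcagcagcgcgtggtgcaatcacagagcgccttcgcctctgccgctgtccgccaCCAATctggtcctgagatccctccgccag
Hmgcs1 held TCACCCCAC from 137 to 129 bases before the start, between 2 of its 3 CCAAT boxes. Idi1 held 2 CCAAT boxes within the last 45 bases and no TCACNCCAC, and Cyp51 held 1 CCAAT box and no TCACNCCAC. Over the 300 bases of each table entry, which include 50 bases after the start, both strands were searched and no overlap between the motifs was removed. CCAAT was found in 15 of 16 matched synthesis enzymes (93.8%), in 4 of 7 regulators and in 2 of 4 transport and turnover genes, against 41.1% of all 27025 symbols in the table. TCACNCCAC was found in 1 of the 27 matched genes, Hmgcs1, against 1.44% of all symbols. The E box CACGTG, which reads the same on both strands, was found in 6 of 27 (22.2%), against 8.09% of all symbols. A match is a match of letters, and genes with several start sites had more sequence to hold one.

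The arrays themselves sorted by tissue and carried the markers their labels call for. Of the neuronal markers measured, 7 of 7 of striatal projection neurons were higher in wild-type striatum than in wild-type cerebellum and 5 of 5 of granule neurons and 4 of 4 of Purkinje cells were lower, each past an adjusted p of 0.05. Arrays of 1 group correlated at 0.983 to 0.993 over the probe sets past the filter, and arrays of different tissues at 0.796 to 0.849. Htt, the knocked-in gene, averaged 7.83 ± 0.13 in Q111 striatum and 7.83 ± 0.15 in wild-type striatum, and 7.68 ± 0.16 in Q111 cerebellum and 7.95 ± 0.16 in wild-type cerebellum (log2 values, SD, n = 6 each). A probe set for total Htt does not read the repeat length, so these levels check nothing about the genotype.

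In the genotype comparison, most of the measured genes had a lower mean in Q111 than in wild type in both tissues, by small amounts, and no single gene passed the threshold. In striatum 23 of 28 were lower, with a median difference of -0.12 log2 units over the genes, against -0.02 over all 20738 probe sets, of which 55.4% were lower. In cerebellum 24 of 28 were lower, with a median of -0.17, against -0.05 over all probe sets, of which 65.5% were lower. All probe sets include several for some genes, and their median depends on the filter. With the filter at 5 the medians in striatum and cerebellum were -0.12 and -0.19 over the genes, against -0.04 and -0.06 over all probe sets. The synthesis enzymes held most of this: 16 of 18 measured enzymes were lower in Q111 striatum (median -0.17) and 17 of 18 in Q111 cerebellum (median -0.21). The regulators had medians of -0.01 in striatum and -0.03 in cerebellum, and the transport and turnover genes -0.03 and -0.01. With limma's moderated test and Benjamini-Hochberg adjustment over all probe sets, 0 of 28 passed an adjusted p of 0.05 in striatum, where 2.87% of all probe sets did, and 0 of 28 in cerebellum, where 0.458% did.

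At an unadjusted p under 0.05, 10 of 28 genes were lower in Q111 striatum, against 12.5% of all probe sets, and 1 was higher, against 6.46%. In cerebellum 10 of 28 were lower, against 11.2% of all probe sets, and 0 were higher, against 2.67%. Both tissues shared 6 of these genes, Idi1, Fdps, Cyp51, Dhcr7, Stard4 and Cyp46a1. That is 21.4% of the 28, against 3.19% of all probe sets lower at this p in both tissues. As an overlap of lists it is 60% of each list of 10. Over all probe sets the lists held 2594 in striatum and 2313 in cerebellum, with 662 shared. The mean was lower in both tissues for 20 of 28 genes, against 39.7% of all probe sets, and higher in both for Abca1 alone among the 28, against 18.8% of all probe sets. These counts depend on the scaling. After quantile normalisation 19 of 28 were lower in each tissue (medians -0.09 and -0.11). After centring each array on its median, 18 of 28 were lower in each (medians -0.07 and -0.07). Over all probe sets the medians in striatum and cerebellum rose as well, from -0.02 and -0.05. They were 0.004 and 0.006 after quantile normalisation and 0.03 and 0.05 after centring.

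**Figure D1:**
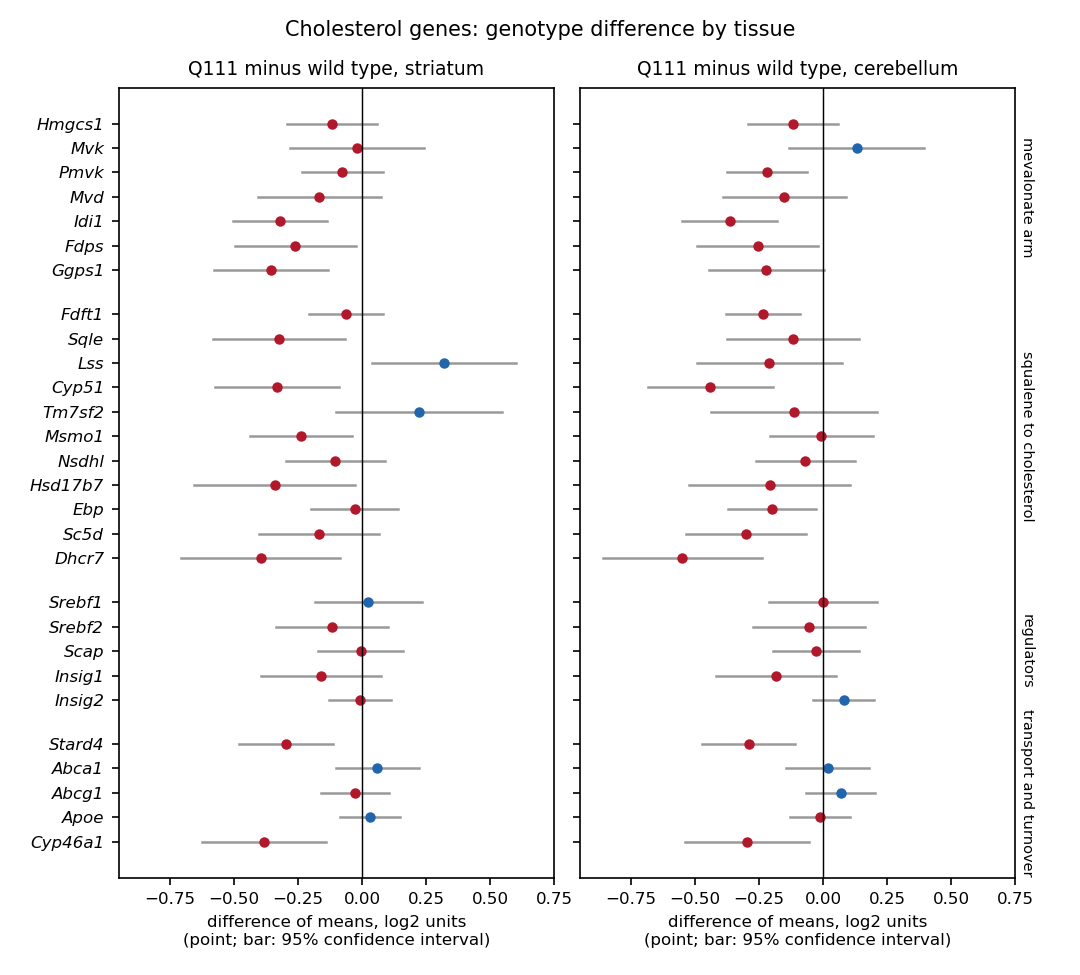
Difference of group means, Q111 minus wild type, in log2 units for the 28 measured genes (points, red below 0 and blue above, with 95% confidence intervals as bars), in striatum on the left and cerebellum on the right, ordered by role. Most points of the 2 enzyme groups lie left of 0 in both tissues, and the regulators lie near 0.

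The genes of the mevalonate arm were lower in Q111 in 7 of 7 cases in striatum and in 6 of 7 in cerebellum. Idi1, the isomerase that turns isopentenyl diphosphate into dimethylallyl diphosphate, came closest to the threshold in both tissues. In striatum its lowest, median and highest values were 8.99, 9.21 and 9.31 on Q111 arrays, against 9.23, 9.55 and 9.75 on wild-type arrays. The 6 Q111 values all lay below the wild-type mean, and the groups overlapped because wild-type replicates 3 and 4, at 9.23 and 9.24, fell within the Q111 range. The difference was -0.32 ± 0.09 log2 units (SE, adjusted p = 0.0525), a ratio of 0.801. In cerebellum the values were 9.28, 9.34 and 9.53 on Q111 arrays, against 9.59, 9.73 and 9.82 on wild-type arrays, with no overlap. The difference there was -0.37 ± 0.09 (adjusted p = 0.0657).

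Idi1 was also the gene whose call moved most often with single arrays. Its adjusted p in striatum was 0.0294 without wild-type striatum replicate 3 and 0.0410 without wild-type striatum replicate 4, and in cerebellum it was 0.0483 without wild-type striatum replicate 3, which enters that fit only through the shared spread. A second Idi1 probe set differed by -0.10 in striatum and -0.34 in cerebellum.

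Ggps1, which makes geranylgeranyl diphosphate for protein prenylation on a branch off the main path, had values of 7.42, 7.46 and 7.86 in Q111 striatum (lowest, median, highest), against 7.78, 7.96 and 8.04 in wild-type striatum. Replicates 1 to 4 of Q111 lay from 7.42 to 7.46 and replicates 5 and 6 at 7.86 and 7.85, so that 2 of the 6 reached the wild-type range. The difference was -0.36 ± 0.11 (adjusted p = 0.0740) over all arrays, and -0.55 within replicate numbers 1 to 3 against -0.16 within 4 to 6. The other 3 Ggps1 probe sets past the filter differed by -0.08, -0.07 and -0.03 in striatum, less than the one that stands for the gene. In cerebellum Ggps1 ran from 8.45 to 9.09 on Q111 arrays and from 8.86 to 9.12 on wild-type arrays (difference -0.22 ± 0.11, adjusted p = 0.364). There the other 3 probe sets differed by 0.01, 0.09 and -0.07, so the Ggps1 probe sets disagree in sign in cerebellum.

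The 5 other enzymes of the arm gave smaller or less even differences. Fdps, which joins isoprenoid units to farnesyl diphosphate, ran from 8.01 to 8.50 in Q111 striatum against 8.14 to 8.67 in wild-type striatum (difference -0.26 ± 0.11, adjusted p = 0.212). It ran from 7.87 to 8.19 in Q111 cerebellum against 7.86 to 8.49 in wild-type cerebellum (difference -0.26 ± 0.11, adjusted p = 0.311). The sets of replicate numbers disagreed for Fdps: the difference was -0.06 within numbers 1 to 3 and -0.46 within 4 to 6 in striatum, and -0.45 and -0.07 in cerebellum. Pmvk, which adds the second phosphate to mevalonate, had values of 7.81, 7.86 and 8.09 in Q111 cerebellum, against 8.08, 8.11 and 8.18 in wild-type cerebellum. Only Q111 replicate 5, at 8.09, reached the wild-type range, and the difference was -0.22 ± 0.08 (adjusted p = 0.194), while in striatum it was -0.08 ± 0.08 (adjusted p = 0.641).

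Hmgcs1, which condenses acetyl units to HMG-CoA at the entry to the pathway, differed by -0.12 ± 0.09 in each tissue (adjusted p = 0.491 in striatum and 0.567 in cerebellum). All 6 Q111 striatum arrays lay below its wild-type mean, and the ranges overlapped, 11.48 to 11.76 on Q111 arrays against 11.57 to 11.99 on wild-type arrays. Its 3 other probe sets past the filter had differences from -0.30 to -0.13 over both tissues. Mvd, which makes isopentenyl diphosphate, differed by -0.17 ± 0.12 in striatum and -0.15 ± 0.12 in cerebellum. Mvk, mevalonate kinase, differed by -0.02 ± 0.13 and 0.13 ± 0.13, at values between 4.19 and 5.04 that lie near the filter. Its second probe set differed by -0.45 in striatum and -0.15 in cerebellum, so the 2 probe sets disagree in sign in cerebellum.

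From squalene onward, 9 of 11 enzymes were lower in Q111 striatum and 11 of 11 in Q111 cerebellum. Dhcr7, the reductase that ends one branch of the pathway, had the largest fitted difference of the set in both tissues and also a wide spread. In striatum its values were 6.94, 7.19 and 7.40 on Q111 arrays (lowest, median, highest), against 7.08, 7.64 and 8.01 on wild-type arrays. Wild-type replicates 1, 2 and 6, at 8.01, 7.87 and 7.94, stood above every Q111 array, while replicates 3, 4 and 5, from 7.08 to 7.41, lay within or just above the Q111 range. The difference was -0.40 ± 0.15 (adjusted p = 0.147), a ratio of 0.760. In cerebellum the values were 6.07, 6.61 and 6.88 on Q111 arrays, against 6.84, 7.13 and 7.44 on wild-type arrays. Only Q111 replicate 6, at 6.88, and wild-type replicate 4, at 6.84, crossed, and the difference was -0.55 ± 0.15 (adjusted p = 0.0987), a ratio of 0.683.

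Cyp51, the demethylase that starts the trimming of lanosterol, had values of 7.78, 7.95 and 8.37 in Q111 striatum, against 8.02, 8.33 and 8.67 in wild-type striatum. Q111 replicate 3, at 8.37, stood above the other Q111 arrays and above the wild-type mean. The difference was -0.33 ± 0.12 (adjusted p = 0.120). In cerebellum the values were 7.34, 7.77 and 7.92 on Q111 arrays, against 7.91, 8.22 and 8.26 on wild-type arrays. Of the wild-type arrays only replicate 4, at 7.91, reached down to the Q111 range, and the difference was -0.44 ± 0.12 (adjusted p = 0.0908), a ratio of 0.737. A second Cyp51 probe set differed by -0.09 in striatum and -0.65 in cerebellum.

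Fdft1, squalene synthase, had values of 8.19, 8.24 and 8.37 in Q111 cerebellum, against 8.23, 8.54 and 8.61 in wild-type cerebellum. The overlap came from wild-type replicate 4, at 8.23, alone, and the difference was -0.24 ± 0.07 (adjusted p = 0.128). In striatum the Fdft1 groups overlapped widely, 9.21 to 9.56 on Q111 arrays against 9.30 to 9.58 on wild-type arrays (difference -0.06 ± 0.07, adjusted p = 0.690). A second Fdft1 probe set differed by 0.01 in striatum and -0.37 in cerebellum. Ebp, a sterol isomerase, was besides Idi1 the only one of the 28 whose groups did not overlap in cerebellum: 8.72 to 8.84 on Q111 arrays and 8.89 to 9.15 on wild-type arrays, with a difference of -0.20 ± 0.08 (adjusted p = 0.279). Of all probe sets, 0.945% had every Q111 cerebellum array below every wild-type one and 0.178% the opposite, while in striatum, where 0 of the 28 genes had separate groups, these shares were 1.67% and 0.714%. In striatum Ebp differed by -0.03 ± 0.08.

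Among the remaining sterol enzymes the tissues gave different orders of size. Sqle, the epoxidase of squalene, ran from 7.49 to 8.06 in Q111 striatum against 7.82 to 8.33 in wild-type striatum (difference -0.32 ± 0.12, adjusted p = 0.152), and differed by -0.12 ± 0.12 in cerebellum. Hsd17b7, a keto-reductase, differed by -0.34 ± 0.15 in striatum and -0.21 ± 0.15 in cerebellum, and in striatum wild-type replicates 2 and 6, at 6.41 and 6.40, stood apart from the 4 others at 5.63 to 5.79. Msmo1, the methylsterol oxidase, differed by -0.24 ± 0.10 in striatum (10.46 to 10.63 on Q111 arrays, 10.50 to 10.97 on wild-type arrays) and by -0.01 ± 0.10 in cerebellum, and its second probe set by 0.02 and 0.03. Sc5d, a sterol desaturase, differed by -0.17 ± 0.11 in striatum and -0.30 ± 0.11 in cerebellum, where Q111 arrays ran from 7.25 to 7.77 and wild-type arrays from 7.77 to 7.94. The other 2 Sc5d probe sets differed by 0.06 and -0.19 in striatum and by -0.06 and 0.01 in cerebellum, less than the one that stands for the gene in cerebellum. Nsdhl, a sterol dehydrogenase, differed by -0.10 ± 0.09 and -0.07 ± 0.09. None of these passed the adjusted threshold, and the smallest adjusted p among them was 0.152.

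Lss and Tm7sf2 were the enzymes higher in Q111 striatum. Lss, which closes the sterol rings, had values of 6.20, 6.37 and 6.67 in Q111 striatum, against 5.64, 6.16 and 6.34 in wild-type striatum. All 6 Q111 arrays lay above the wild-type mean, and the difference was 0.32 ± 0.14 (adjusted p = 0.196), the 1 gene higher at an unadjusted p under 0.05. A second Lss probe set gave the opposite sign in striatum, -0.20, and both were lower in cerebellum, by -0.21 and -0.46, so the direction in striatum depends on the probe set. Tm7sf2, a sterol reductase, differed by 0.22 ± 0.16 in striatum and -0.11 ± 0.16 in cerebellum.

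On the probe sets that stand for the genes, the regulators differed little between genotypes. Srebf2, whose product SREBP-2 drives the synthesis genes, ran from 8.78 to 9.42 in Q111 striatum against 8.93 to 9.21 in wild-type striatum (difference -0.12 ± 0.11) and differed by -0.06 ± 0.11 in cerebellum. Its second probe set gave 0.47 in striatum and -0.48 in cerebellum (adjusted p = 0.192 and 0.274), a sign opposite to the first in striatum. Srebf1 differed by 0.02 ± 0.10 in striatum and -0.00 ± 0.10 in cerebellum, with a 95% confidence interval of -0.18 to 0.23 in striatum. Scap, the escort protein, differed by -0.00 ± 0.08 in striatum and -0.03 ± 0.08 in cerebellum. Insig1, itself a target of SREBP, differed by -0.16 ± 0.11 and -0.19 ± 0.11, and Insig2 by -0.01 ± 0.06 and 0.08 ± 0.06. All 6 Q111 cerebellum arrays of Insig2 lay above the wild-type mean, and its other 2 probe sets differed by -0.13 and 0.01 there. In striatum these 2 probe sets differed by 0.12 and -0.22, with opposite signs.

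In transport and turnover, 2 of 5 genes were lower in both tissues at an unadjusted p under 0.05 and the other 3 stayed near 0. Stard4, a soluble protein that moves sterols between membranes and a known target of SREBP-2, had values of 7.08, 7.22 and 7.43 in Q111 striatum, against 7.29, 7.57 and 7.66 in wild-type striatum. All Q111 arrays lay below the wild-type mean, and the difference was -0.30 ± 0.09 (adjusted p = 0.0678, and 0.0478 without wild-type striatum replicate 3). In cerebellum the values were 8.84, 9.05 and 9.26 on Q111 arrays, against 9.05, 9.37 and 9.49 on wild-type arrays (difference -0.29 ± 0.09, adjusted p = 0.138). The other 2 Stard4 probe sets were also lower in both tissues, by -0.57 and -0.12 in striatum and -0.48 and -0.22 in cerebellum.

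Cyp46a1, the neuronal hydroxylase through which cholesterol leaves the brain, had values of 10.28, 10.48 and 10.70 in Q111 striatum, against 10.60, 10.90 and 11.06 in wild-type striatum. Q111 replicates 4 and 5, at 10.69 and 10.70, overlapped only wild-type replicate 6, at 10.60. The difference was -0.38 ± 0.12 (adjusted p = 0.0748, and 0.0363 without Q111 cerebellum replicate 5, which enters only through the shared spread), a ratio of 0.767. In cerebellum Cyp46a1 ran from 6.56 to 7.34 on Q111 arrays and from 7.13 to 7.50 on wild-type arrays (difference -0.30 ± 0.12, adjusted p = 0.252). Apoe, the main apolipoprotein of the brain, differed by 0.03 ± 0.06 in striatum and -0.01 ± 0.06 in cerebellum. Its 95% confidence intervals were -0.08 to 0.15 and -0.13 to 0.10. The exporter Abca1 differed by 0.06 ± 0.08 and 0.02 ± 0.08, and Abcg1 by -0.03 ± 0.06 and 0.07 ± 0.06. A second Abcg1 probe set differed by 0.02 in striatum and 0.05 in cerebellum.

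**Figure D2:**
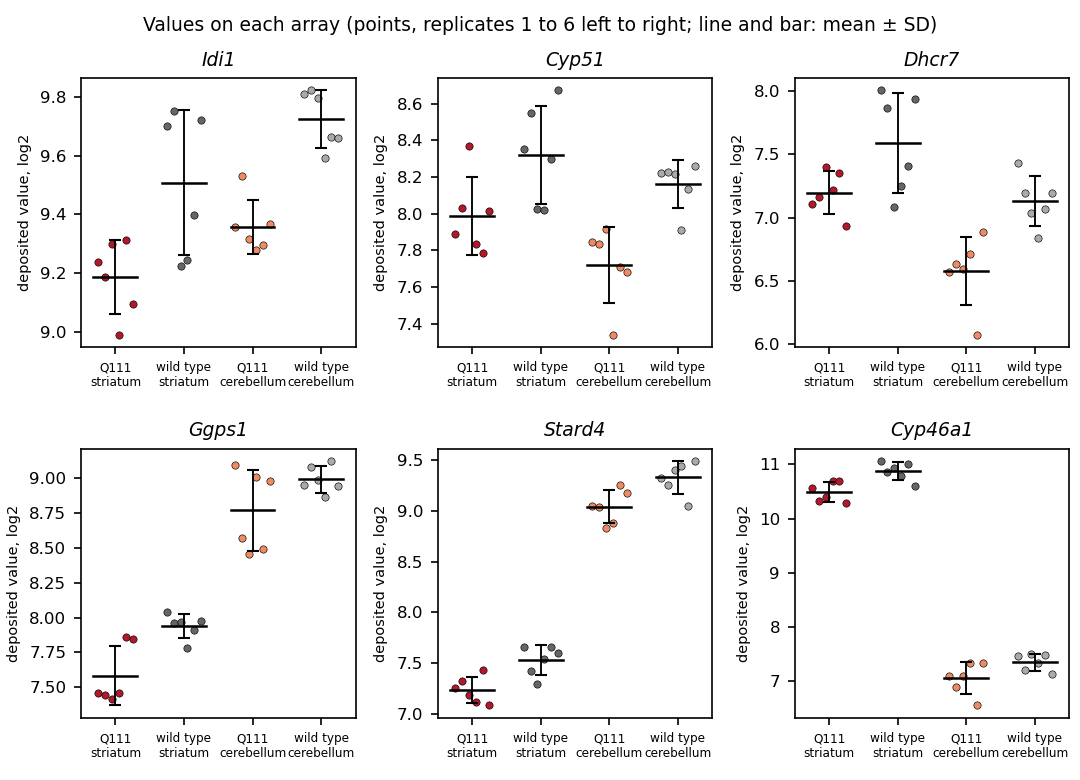
Deposited log2 value on each array for 6 of the genes with the smallest p in a genotype comparison (points in order of replicate number within a group; the line is the mean and the bar the SD, n = 6). Q111 and wild type overlap in every panel except Idi1 in cerebellum, and Cyp46a1, Stard4 and Ggps1 differ far more between the tissues than between the genotypes.

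The genotype difference did not differ detectably between the tissues. In the test of striatum against cerebellum differences, 0 of 28 passed an adjusted p of 0.05, where 0.0868% of all probe sets did. The 28 interaction values had a median of 0.01 and ran from -0.23 for Msmo1 to 0.53 for Lss, whose unadjusted p was 0.0112 and adjusted p 0.311. Lss was the only one of the 28 with an unadjusted p under 0.05 here. For Idi1 the interaction was 0.05, with a 95% confidence interval of -0.21 to 0.31, and for Stard4 -0.01, with an interval of -0.26 to 0.25.

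The mean of the 18 measured synthesis enzymes was 7.49, 7.61 and 7.69 on Q111 striatum arrays (lowest, median, highest), against 7.56, 7.75 and 7.94 on wild-type striatum arrays. On cerebellum arrays it was 7.47, 7.56 and 7.58 in Q111, against 7.56, 7.74 and 7.91 in wild type. Wild type was the more spread genotype in both tissues, with an SD of 0.07 in Q111 against 0.14 in wild type in striatum and 0.05 against 0.12 in cerebellum. Wild-type striatum replicate 6 was among the 3 highest of its group for 17 of the 18 enzymes, and replicate 3 for 3 of them. In wild-type cerebellum replicate 2 was among the 3 highest for 17 of 18 and replicate 4 for 3 of 18. On Q111 arrays these counts lay closer together, from 5 to 15 of 18 in striatum and from 5 to 12 in cerebellum. The array median over all probe sets past the filter was highest in its group for wild-type striatum replicate 6 (7.23). That median was lowest in its group for wild-type cerebellum replicate 2 (7.14). Such ranks were not counted over other probe sets, and whether the enzymes varied together from array to array was not tested.

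**Figure D3:**
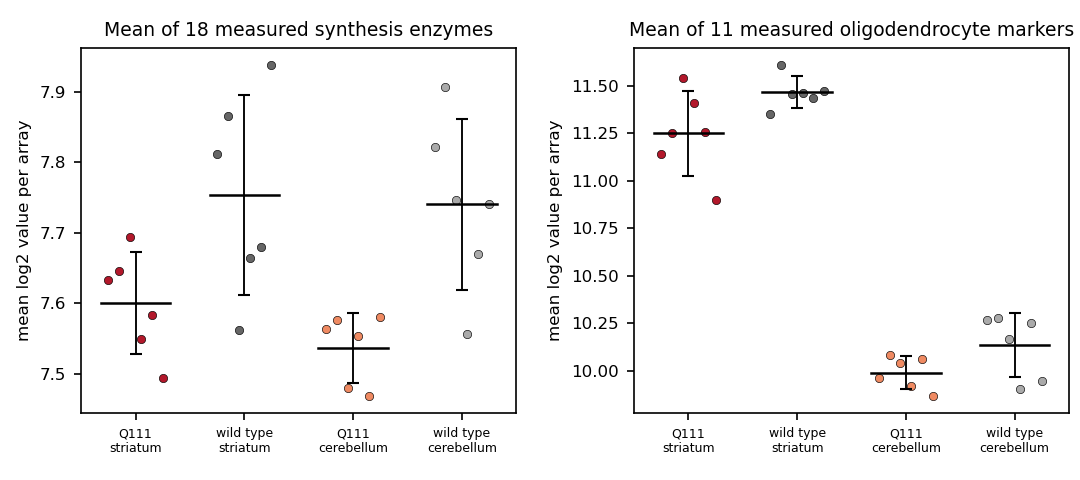
Mean log2 value per array of the 18 measured synthesis enzymes (left) and of the 11 measured oligodendrocyte markers (right), with points in order of replicate number and the group mean ± SD (n = 6). The enzyme means of Q111 lie low within or below the wild-type range in both tissues, and the oligodendrocyte means are more than 1 log2 unit higher in striatum than in cerebellum.

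Myelin is the largest store of brain cholesterol, so markers of oligodendrocytes, the cells that make it, are given beside the enzymes. Of 11 measured markers, 10 were lower in Q111 striatum (median -0.20) and 9 in Q111 cerebellum (median -0.10), with 0 called in either tissue at an adjusted p of 0.05. Their mean ran from 10.90 to 11.54 in Q111 striatum against 11.35 to 11.61 in wild-type striatum, and from 9.87 to 10.08 in Q111 cerebellum against 9.90 to 10.28 in wild-type cerebellum. Aspa and Opalin had the largest differences in striatum, -0.45 ± 0.13 (adjusted p = 0.0621) and -0.48 ± 0.16 (adjusted p = 0.102), while Mbp, a main protein of myelin, differed by 0.02 ± 0.05. With the mean of these markers as a covariate, 21 of 28 cholesterol genes were lower in each tissue, against 23 in striatum and 24 in cerebellum without it. The medians were -0.07 in striatum and -0.11 in cerebellum, against -0.12 and -0.17 without it. Over all probe sets the medians with the covariate were -0.02 and -0.05. The part of oligodendrocytes in the genotype difference was not tested. In bulk tissue, fewer cells of a type and less RNA per cell cannot be told apart.

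Some markers of other cell types also differed between the genotypes. Of the measured markers of astrocytes, striatal projection neurons, granule neurons and Purkinje cells, 0 were called in either tissue. In Q111 striatum 5 of 5 measured markers of cortical projection neurons were higher, with Neurod6 and Fezf2 past the threshold (1.12 ± 0.20 and 0.71 ± 0.15, adjusted p = 0.00345 and 0.0132), and their mean ran from 6.65 to 7.62 in Q111 striatum against 6.23 to 6.99 in wild-type striatum. All 3 measured endothelial markers were lower in Q111 in both tissues, Cldn5 past the threshold in striatum (-0.73 ± 0.11, adjusted p = 0.000599). Their mean ran from 6.33 to 6.70 in Q111 striatum against 6.82 to 7.32 in wild-type striatum, and from 6.00 to 6.33 in Q111 cerebellum against 6.41 to 6.73 in wild-type cerebellum, so the genotypes did not overlap in either tissue. Of 8 microglial markers, 4 were higher and 4 lower in Q111 striatum, with a median of 0.003. Past the threshold there, the complement genes C1qa, C1qb and C1qc were higher (by 0.44, 0.67 and 1.04) and Aif1 was lower (-0.34). In cerebellum 6 of the 8 were higher and 2 lower (median 0.11), with 0 called. In Q111 cerebellum the 3 complement genes differed by 0.35, 0.41 and 0.85 (adjusted p = 0.184, 0.130 and 0.128) and Aif1 by -0.06. The test of the difference between tissues gave adjusted p = 0.904, 0.656 and 0.905 for C1qa, C1qb and C1qc. The mean of the 4 choroid plexus markers ran widely within each group, from 6.77 to 10.07 in Q111 striatum against 6.24 to 9.68 in wild-type striatum, with 0 called. The 8 markers of astrocytes, cells that make sterol in the adult brain, had means of 10.00 to 10.15 in Q111 striatum against 9.94 to 10.21 in wild-type striatum, and 10.68 to 10.84 in Q111 cerebellum against 10.68 to 10.95 in wild-type cerebellum. The part of these cell types in the lower cholesterol genes was not tested.

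Genes of the same regulatory circuit outside the set were read as well. Of 10 fatty acid genes, many of them SREBP targets, 8 were lower in Q111 striatum (median -0.16) and 10 in Q111 cerebellum (median -0.18). Of all probe sets, 55.4% were lower in striatum and 65.5% in cerebellum, and 2.87% were called in striatum. How the values of these genes depend on the scaling was not examined. Elovl6, an elongase of fatty acids, fell past the threshold in striatum, to 8.73 ± 0.09 in Q111 against 9.03 ± 0.18 in wild type (SD, n = 6 each), a difference of -0.30 ± 0.08 (SE, adjusted p = 0.0469). In cerebellum 0 of the 10 passed, and the smallest adjusted p was 0.108, for the desaturase Fads1 (-0.21 ± 0.06). Fads2, the neighbouring desaturase, differed by 0.22 ± 0.12 in striatum and -0.38 ± 0.12 in cerebellum. Of 11 other genes of synthesis and uptake 6 were measured, and 4 of these were lower in striatum and 3 in cerebellum with 0 called. Among them Erg28, a scaffold of the sterol demethylation enzymes, differed by -0.33 ± 0.10 in striatum (adjusted p = 0.0798), and Npc1, which exports cholesterol from lysosomes, by 0.17 ± 0.06 (adjusted p = 0.133).

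Of 9 genes that process or hold SREBP 6 were measured, with 0 called, 4 lower in striatum and 6 in cerebellum and medians of -0.07 in both. Of 13 genes of sterol turnover and lipid carriage 12 were measured, with 0 called, 6 lower in striatum and 8 in cerebellum. Apod, an apolipoprotein of glia, differed by -0.34 ± 0.10 in striatum and 0.31 ± 0.10 in cerebellum (adjusted p = 0.0798 and 0.187).

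Between the tissues the set differed far more than between the genotypes. In Q111 mice 12 of 28 genes were called higher in striatum (adjusted p under 0.05), against 31.3% of all probe sets. Another 10 were called lower there, against 40.1%. In wild-type mice 10 of 28 were called higher at this threshold, against 30.6% of all probe sets, and 9 were called lower, against 41.2%. The set's shares of called genes thus lay near those of all probe sets. Both genotypes shared 10 genes called higher and 8 called lower, where 27.5% and 36.5% of all probe sets were called in both. The lowest value on an array was 0.36 to 0.38 in striatum and -0.77 to -0.66 in cerebellum. No source used here says if 1 normalisation covered both tissues, so levels across tissues carry that uncertainty. In wild type the median over the 28 genes was 0.12 and with the oligodendrocyte markers as a covariate it was -0.29, a change of sign. The mean of these markers ran from 11.35 to 11.61 on wild-type striatum arrays and from 9.90 to 10.28 on wild-type cerebellum arrays. With no overlap, covariate and tissue cannot be told apart in this fit.

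**Figure D4:**
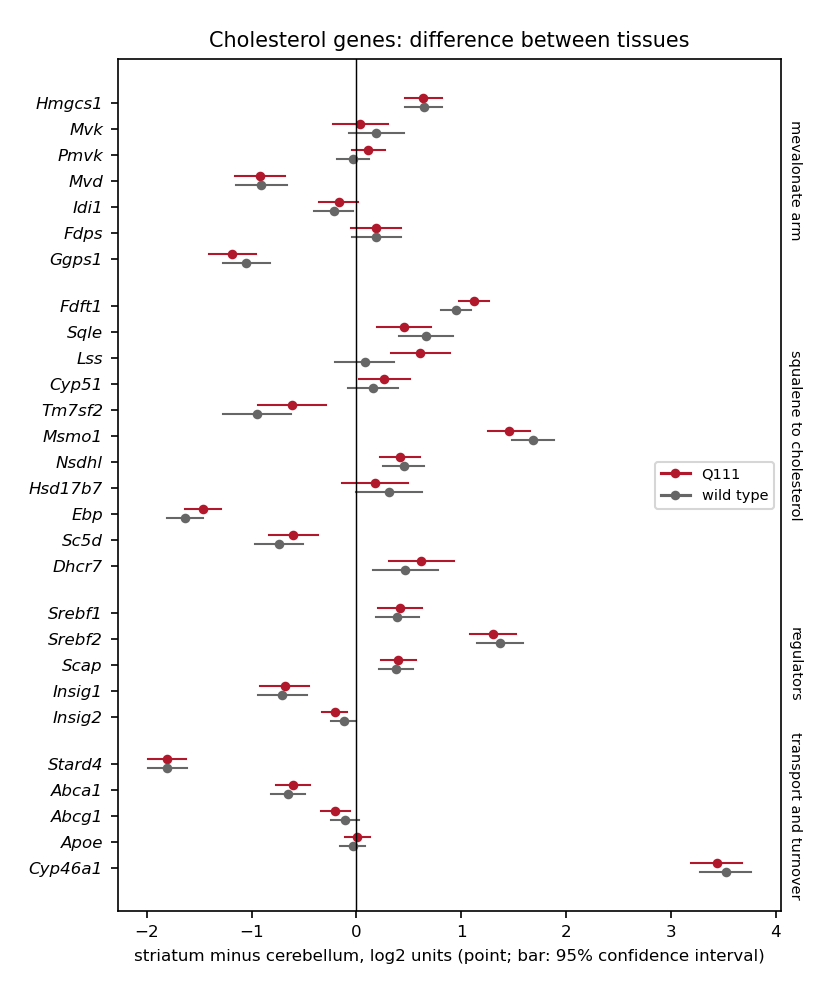
Striatum minus cerebellum in log2 units for the 28 measured genes in Q111 (red) and wild-type (grey) mice, with 95% confidence intervals as bars, ordered by role. Cyp46a1 lies far to the right in both genotypes, Stard4 and Ebp lie farthest to the left, and the 2 genotypes overlap for most genes.

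Cyp46a1 showed the largest tissue difference of the set. Its values were 10.60, 10.90 and 11.06 in wild-type striatum (lowest, median, highest), against 7.13, 7.40 and 7.50 in wild-type cerebellum. No striatal array came near a cerebellar one, and the difference was 3.44 ± 0.12 log2 units in Q111 and 3.52 ± 0.12 in wild type (SE), or 10.8-fold and 11.5-fold (adjusted p = 3.99e-18 and 2.48e-18). Stard4 went the other way, with values of 7.29, 7.57 and 7.66 in wild-type striatum against 9.05, 9.37 and 9.49 in wild-type cerebellum. The difference was -1.81 ± 0.09 in Q111 and -1.80 ± 0.09 in wild type (adjusted p = 4.96e-15 and 5.03e-15), and its other 2 probe sets gave -2.21 and -2.41 in wild type.

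Enzymes of the same pathway did not share 1 tissue order. Msmo1 ran from 10.50 to 10.97 in wild-type striatum against 8.64 to 9.27 in wild-type cerebellum, a difference of 1.45 ± 0.10 in Q111 and 1.69 ± 0.10 in wild type. Its second probe set gave 0.11 in Q111 and 0.12 in wild type (adjusted p = 0.161 and 0.121), and the mean of both probe sets differed by 0.90 in wild type. Fdft1 was also higher in striatum, by 1.12 ± 0.07 in Q111 and 0.95 ± 0.07 in wild type, and Hmgcs1, Sqle, Nsdhl and Dhcr7 were higher by 0.45 to 0.66 in wild type. Ebp ran from 7.16 to 7.62 in wild-type striatum against 8.89 to 9.15 in wild-type cerebellum, a difference of -1.46 ± 0.08 in Q111 and -1.64 ± 0.08 in wild type. Ggps1, Tm7sf2, Mvd and Sc5d were lower in striatum as well, from -1.05 to -0.74 in wild type, and the 2 other probe sets of Sc5d gave -0.38 and -0.10. For Ggps1 the difference of -1.05 ± 0.11 became -0.47 ± 0.37 (SE) with the oligodendrocyte markers as a covariate. It was then no longer called (adjusted p = 0.399), with a larger SE. The 3 other Ggps1 probe sets gave -1.25, -0.19 and -0.16. Idi1 was called in wild type (-0.22 ± 0.09, adjusted p = 0.0337) and missed the threshold in Q111 (-0.17 ± 0.09, adjusted p = 0.0912). The difference between these 2 values is the interaction of 0.05 for this gene, which did not pass.

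Among the regulators, Srebf2 was higher in striatum, 8.93 to 9.21 against 7.60 to 8.02 in cerebellum in wild type, a difference of 1.30 ± 0.11 in Q111 and 1.37 ± 0.11 in wild type. Its second probe set gave 1.55 in Q111 and 0.59 in wild type, and the mean of both differed by 0.98 in wild type. Srebf1 and Scap were higher by 0.42 and 0.40 in Q111 and by 0.39 and 0.38 in wild type. Insig1, which holds back SREBP, was lower in striatum, by -0.68 ± 0.11 in Q111 and -0.71 ± 0.11 in wild type. Of the exporters, Abca1 was lower in striatum by -0.61 ± 0.08 in Q111 and -0.65 ± 0.08 in wild type, while its second probe set gave -0.30 and -0.21 (adjusted p = 0.165 and 0.328). Apoe was level between the tissues, at 12.92 ± 0.09 in Q111 striatum and 12.92 ± 0.10 in Q111 cerebellum, and 12.89 ± 0.08 in wild-type striatum and 12.93 ± 0.04 in wild-type cerebellum (SD, n = 6 each). Its tissue difference was -0.04 ± 0.06 in wild type (adjusted p = 0.568).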

How the data were processed

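Total RNA was hybridised to Affymetrix MG430 2.0 arrays, per the design text. All arrays stand in 1 deposited table, made by the authors with GCRMA as the submitters' processing notes name it (no version is named). GCRMA corrects background by probe sequence, normalises the arrays and summarises each probe set. No log base is stated, and the deposited values, from -0.77 to 16.33, were read as log2 values. Array precision is limited by the number of arrays, 6 in a group.

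The table held 45101 probe sets, 64 of them controls, which were dropped. Requiring a mean of 4 or more over the arrays of either tissue kept 20738. A model with 4 group means over the 24 arrays was fitted with limma 3.58.1 in R 4.3.3 (20 residual degrees of freedom), and p-values of its moderated statistics were adjusted by the Benjamini-Hochberg method over these probe sets and called under 0.05. The fit was tested on simulated data. A score is the mean log2 value of a list on an array. Motifs were searched with Python 3.11.15.

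The genes and lists were chosen with earlier results of these data known. All members are named, and those given array by array are the 6 with the smallest p in each genotype comparison and the 6 with the largest difference between tissues in wild type. Replicate numbers were not taken to pair the arrays, since not every same-numbered pair correlated over 0.1: correlations of same-numbered deviations ran from -0.409 to -0.088 between genotypes in striatum and from -0.423 to 0.119 in cerebellum, and between tissues from -0.055 to 0.142 in Q111 (2 of 6 over 0.1) and from -0.004 to 0.183 in wild type (3 of 6). Averaged over both genotypes, numbers 1 to 3 and 4 to 6 differed little (SD over probe sets 0.0392 in striatum and 0.0384 in cerebellum), less than the genotypes did (0.154 and 0.132), and no source used here names a step that would level them. In sets that are level in this way, deviations of the genotypes tend to offset each other. The correlations between genotypes therefore cannot decide if the numbers pair the arrays.

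Alternatives covered the filter, a floor at 4, scaling, the variance prior, array weights, a replicate block, replicate numbers 1 to 3 and 4 to 6, 1 tissue alone, a marker covariate, the mean of a gene's probe sets and each array left out.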

Additional observations from a re-analysis of the deposited data

Results flagged for a closer look

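In 7 of 112 sets of 6 arrays (28 genes by 4 groups), 1 array lay far from the others by Dixon's ratio of the gap to the whole range, where chance gives about 1 set in 20. In Q111 cerebellum, Idi1 replicate 2 was high at 9.53, against a next value of 9.37 (ratio 0.653). In wild-type striatum the ratio was 0.757 for Tm7sf2 replicate 3, low at 5.08, 0.786 for Srebf2 replicate 6, low at 8.93, and 0.639 for Mvd replicate 3, low at 4.95. In wild-type cerebellum it was 0.648 for Cyp51 replicate 4, low at 7.91, 0.683 for Msmo1 replicate 4, low at 8.64, and 0.663 for Mvk replicate 2, high at 4.85. Of the 28 genes, 0 had all Q111 arrays on opposite sides of the wild-type mean in the 2 tissues, where 0.796% of all probe sets did. At so small a share, a count of 0 tells little about the set.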

How the results depend on the processing

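In the genotype comparisons the median over the 28 genes was below 0 under every alternative run, from -0.17 to -0.07 in striatum and from -0.27 to -0.07 in cerebellum, and from -0.15 to -0.09 and from -0.21 to -0.11 with 1 array left out. The count called in striatum, 0, became 1 with the filter at 5, with values under 4 set to 4 and with a trended, robust variance prior, and this gene was Idi1 each time. These fits called 644, 711 and 682 of all probe sets, against 595. At an adjusted p under 0.1 it was 4 in striatum (Idi1, Stard4, Ggps1 and Cyp46a1) and 3 in cerebellum (Idi1, Cyp51 and Dhcr7). In cerebellum the count of 0 became 1, again Idi1, with values under 4 set to 4 and with the arrays of cerebellum alone. It became 5 with array weights (Idi1, Cyp51, Dhcr7, Fdft1 and Stard4). Of all probe sets, 396 were called with array weights and 93 with the arrays of cerebellum alone, against 95. Leaving out 1 array gave 0 to 2 in striatum (2 without wild-type striatum replicate 3, 1 without wild-type striatum replicate 4 or Q111 cerebellum replicate 5) and 0 to 1 in cerebellum (1 without wild-type striatum replicate 3). The same fits called 354, 219 and 658 of all probe sets in striatum, in that order, and 94 in cerebellum. Over all probe sets the counts moved more. In striatum, against 595, there were 384 without a filter, 316 with the number set as a term, 242 and 251 with numbers 1 to 3 and 4 to 6 alone, 202 with the oligodendrocyte markers as a covariate and 1344 at an adjusted p under 0.1. In cerebellum, against 95, there were 173 with values under 4 set to 4, 396 with array weights, 49 with the number set as a term, 11 and 18 with numbers 1 to 3 and 4 to 6 alone and 292 at an adjusted p under 0.1. For the difference between tissues, against 18, counts ran from 1 (replicate block) to 119 (adjusted p under 0.1). With 1 array left out they ran from 219 (wild-type striatum replicate 4) to 689 in striatum, from 34 (Q111 cerebellum replicate 3) to 252 (Q111 cerebellum replicate 6) in cerebellum and from 6 to 50 for the difference between tissues.

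A replicate block within each tissue left 0 of the 28 genes called in both tissues, and over all probe sets it called 153 in striatum, against 595, and 53 in cerebellum, against 95. The numbers were not taken as pairing, which the correlations between genotypes cannot decide, so this fit is reported once. A replicate block shared by the tissues, chosen after seeing the data, gave 22 called between tissues in Q111 and 20 in wild type, against 22 and 19.

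Between the tissues, the oligodendrocyte markers as a covariate left 7 genes called in Q111 and 8 in wild type and turned the median to -0.23 in Q111 and -0.29 in wild type. The marker mean did not overlap between the tissues, so the covariate and the tissue cannot be told apart here. The cause was not tested. Over all probe sets this covariate left 5525 called in Q111 and 5093 in wild type, against 14817 and 14890. With replicate numbers 4 to 6 alone the median in Q111 was 0.032, against 0.14. The other alternatives gave 18 to 23 called in Q111 and 16 to 21 in wild type, and 21 to 22 and 18 to 20 with 1 array left out. With 6 arrays in a group, the SE of a genotype difference ran from 0.06 to 0.16 log2 units over the 28 genes.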
